A study of Mus musculus with 8 samples.

Results

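The genes described here are 8 genes of antigen presentation by MHC class II, taken by symbol from the deposited table of 23413 genes: H2-Aa, H2-Ab1, H2-Eb1, Cd74, Ciita, H2-DMa, H2-DMb1 and H2-DMb2. All 8 had a row in the table and all 8 passed the filter on low counts in every comparison. RNA was sequenced from tumor-associated macrophages (TAMs) of 8 male C57BL/6 (B6) mice, 8 to 10 weeks old at engraftment, each bearing a subcutaneous tumor of the B6-derived melanoma line B16F10. DMSO, the vehicle, was given to 2 mice, and thiostrepton, a thiopeptide antibiotic, was given to 4 mice by intraperitoneal injection (I.P.) and to 2 mice next to the tumor (S.C., named IS in the labels). Doses were given on days 6 and 12, and on day 18 TAMs were sorted from each tumor as CD45+F4/80+CD11b+Gr-1-, giving 1 library per mouse. The S.C. dose was 20 mg/kg, while the I.P. dose of these 4 mice and the route of the DMSO mice are not given in the sources used here. The study's I.P. doses were all several times higher than its S.C. dose, so route and dose cannot be told apart when S.C. and I.P. mice are compared. The sort did not use MHC class II, and it does not separate macrophages from other F4/80+CD11b+ cells. The question for these genes was whether their RNA in TAMs differed between mice given thiostrepton by either route and mice given vehicle, and between the routes.

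MHC class II molecules carry peptides from the endosomal pathway to the cell surface, where CD4+ T cells read them. H2-Aa and H2-Ab1 encode the alpha and beta chains of I-A, and H2-Eb1 encodes the beta chain of I-E, a molecule that B6 mice do not make because their alpha chain gene is defective. The invariant chain Cd74 holds the groove of new class II molecules and leads them to endosomes, where H2-DM, a dimer of H2-DMa with a beta chain from H2-DMb1 or H2-DMb2, exchanges the last invariant chain fragment for peptide. Ciita encodes the coactivator that docks on the X and Y boxes of class II promoters and sets how strongly they are transcribed. In macrophages it is induced above all by interferon-gamma, and class II on TAMs is widely used as a sign of an inflammatory state.

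On GRCm38 (mm10), with positions from GENCODE vM21, the beta chain gene H2-Ab1 lies at chr17:34257689-34269419 and the alpha chain gene H2-Aa at chr17:34282744-34287823. H2-Eb1 lies at chr17:34305867-34316674. The DM genes lie next to each other, H2-DMa at chr17:34119541-34139101, H2-DMb2 at chr17:34143307-34151555 and H2-DMb1 at chr17:34153072-34160230. Ciita lies at chr16:10480059-10528418. The transcripts H2-DMb1-201 and H2-DMb2-201 of the DM beta genes were identical at 95.25% of 1094 aligned positions, with a longest shared run of 221 bases, so the division of reads between these 2 genes is uncertain. Exons of Brd2 hold 10.4% of the exon bases of H2-DMa, and exons of Dexi hold 3.45% of those of Ciita. Whether counting used strand is not stated, so reads from these stretches cannot be assigned.

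Promoter sequence is shown because Ciita acts through the X and Y boxes of class II promoters. RefSeq promoter windows (GRCm38.p6) were at hand for H2-Aa, H2-Eb1, H2-DMa, H2-DMb1 and H2-DMb2. The 250 bases before the RefSeq start were searched on both strands for the X1 core AACNGATG, the X2 palindrome TGACGTCA and the Y box TGATTGG, which do not overlap each other here. The motif letters were chosen with these promoters in view, so the matches are a description. Capitals mark the matches, and positions count back from the RefSeq start, with -1 the base before it.
H2-Aa, chr17:34287855-34287909, minus strand, bases -86 to -32: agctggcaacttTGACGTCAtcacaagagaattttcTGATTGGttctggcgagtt
H2-Eb1, chr17:34305766-34305824, plus strand, bases -101 to -43: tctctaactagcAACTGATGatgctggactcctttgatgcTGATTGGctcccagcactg
H2-DMb2, chr17:34145116-34145175, plus strand, bases -133 to -74: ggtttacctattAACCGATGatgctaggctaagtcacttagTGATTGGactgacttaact
H2-DMb1, chr17:34153088-34153117, plus strand, bases -103 to -74: gtttacctagtAACTGATGatgctaggctg
GENCODE places the H2-DMb1 stretch in an untranslated exon, upstream of the RefSeq start, and the other 3 stretches outside exons. In H2-DMb1 the Y box follows at base -63. An X1 core and a Y box stood together in 48 of 32851 promoter windows of the same length (0.146%), and H2-Eb1, H2-DMb1 and H2-DMb2 are among the 48. Alone, the X1 core was found in 1.98% of windows, the X2 palindrome in 1.55% and the Y box in 7.23%. None of these letter strings was in either window of H2-DMa.

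The libraries held 14127506 to 17577466 counts each, and values are given as CPM (counts scaled to a common library size) after TMM scaling. A floor of 3 counts was worth 0.169 to 0.218 CPM, for counting error only. Macrophage markers were present in every mouse, 9 of 9 genes above 3 counts, with a summed level of 11724 to 14506 CPM in DMSO mice, 13664 to 19431 in I.P. mice and 15819 to 16738 in S.C. mice. The 2 S.C. libraries stood apart in markers of other cells. Neutrophil markers summed to 202 and 319 CPM in S.C. mice against at most 114 CPM in the other 6 mice, and melanocyte markers reached 2964 CPM in S.C. mouse 1 against 430 to 1652 CPM in the 6 mice given DMSO or I.P. and 680 CPM in S.C. mouse 2. In sorted bulk RNA, more cells of a type and more RNA per cell cannot be told apart, which holds for every result below.

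The peptide-binding chains were highest in the TAMs of S.C. mice. H2-Aa was at 766 and 199 CPM in DMSO mice 1 and 2, at 219, 57.1, 632 and 111 CPM in I.P. mice 1 to 4, and at 1203 and 1172 CPM in S.C. mice 1 and 2. H2-Ab1 was at 1968 and 375 CPM in DMSO mice, at 520, 144, 976 and 265 CPM in I.P. mice, and at 3137 and 2688 CPM in S.C. mice. H2-Eb1 was at 483 and 138 CPM in DMSO mice, at 115, 35.9, 432 and 70.1 CPM in I.P. mice, and at 805 and 701 CPM in S.C. mice. For all 3 chains both S.C. mice lay above every other mouse, while I.P. mice overlapped the DMSO mice, with DMSO mouse 1 and I.P. mouse 3 high and I.P. mouse 2 lowest. Both S.C. mice lay above the other 6 for 5.73% of 12352 genes in all. The I-E alpha chain, listed as H2-Ea-ps, had 0 counts in all 8 mice.

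Cd74, the invariant chain, was the most abundant of these RNAs and had the same order of groups. The gene lies outside the MHC, at chr18:60803848-60812652. It was at 3852 and 762 CPM in DMSO mice, at 691, 253, 1631 and 463 CPM in I.P. mice, and at 6196 and 4033 CPM in S.C. mice. I.P. mice 1, 2 and 4 lay below both DMSO mice, I.P. mouse 3 lay between them, and both S.C. mice lay above all.

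Ciita, the coactivator, was scarce but followed the chains. Its counts were 126 and 34 in DMSO mice, 67, 11, 103 and 15 in I.P. mice, and 337 and 242 in S.C. mice. These were 8.55 and 1.95 CPM, then 4.27, 0.669, 5.81 and 0.875 CPM, and then 22.7 and 17.6 CPM. Both S.C. mice had more than 2 times the level of DMSO mouse 1, the highest of the other 6, and I.P. mice 2 and 4 lay below both DMSO mice. Gene counts do not separate the promoters from which Ciita is transcribed in different cell types.

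The peptide editor H2-DM varied less. H2-DMa was at 221 and 92.8 CPM in DMSO mice, at 152, 78.2, 233 and 84.0 CPM in I.P. mice, and at 321 and 269 CPM in S.C. mice. H2-DMb1 was at 337 and 94.2 CPM in DMSO mice, at 169, 96.4, 202 and 100.2 CPM in I.P. mice, and at 402 and 340 CPM in S.C. mice. For both genes the S.C. mice were again highest, with S.C. mouse 2 only slightly above DMSO mouse 1 for H2-DMb1. H2-DMb2 was at 2.10 and 1.90 CPM in DMSO mice, at 5.28, 2.07, 2.37 and 1.05 CPM in I.P. mice, and at 5.58 and 3.13 CPM in S.C. mice, where I.P. mouse 1 lay between the S.C. mice. It took between 0.62% and 3.02% of the reads of both beta genes in each mouse.

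**Figure D1:**
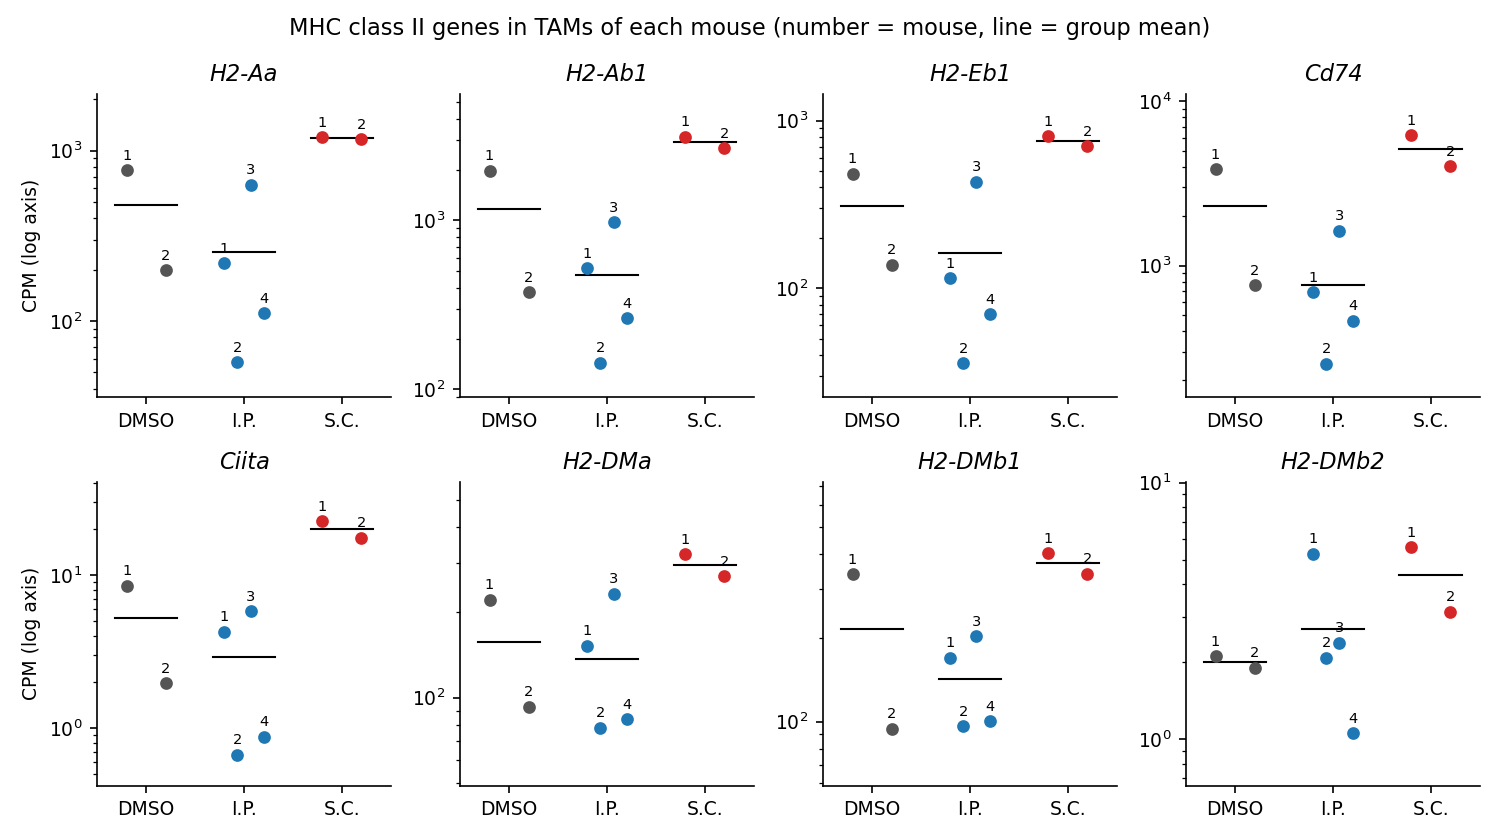
Level of each of the 8 MHC class II genes in the TAMs of each mouse, in CPM on a log axis. Points are mice, marked with their number within the group, and lines are group means (2 DMSO, 4 I.P. and 2 S.C. mice). The S.C. mice sit above all others for every gene but H2-DMb2, and DMSO mouse 1 and I.P. mouse 3 sit high in their groups for most genes.

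In the direct comparison of the routes, 7 of the 8 genes were upregulated in S.C. over I.P. mice by the study's criterion, at least a 2-fold change and an unadjusted P below 0.05 (edgeR quasi-likelihood test). Of all 12206 genes tested, 2.41% were upregulated by this criterion and 7.05% were called in either direction, and 8.59% had an unadjusted P below 0.05. The log2 difference was largest for the coactivator Ciita, at 2.79 (standard error 0.83), and the invariant chain Cd74, at 2.75 (standard error 0.61). The chains H2-Ab1, H2-Aa and H2-Eb1 followed at 2.61 (standard error 0.62), 2.22 (standard error 0.76) and 2.21 (standard error 0.80). The DM genes H2-DMb1 and H2-DMa were at 1.39 (standard error 0.34) and 1.11 (standard error 0.44). H2-DMb2, at 0.69 (standard error 0.82), was the one that did not pass.

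After Benjamini-Hochberg adjustment over all genes, 0 of the 8 genes passed in S.C. against I.P. mice with edgeR's quasi-likelihood test, as did 0 of all genes tested. The adjusted p was 0.273 for Cd74, 0.277 for H2-Ab1, 0.295 for H2-DMb1, 0.396 for Ciita and 0.467 to 0.532 for H2-Aa, H2-Eb1 and H2-DMa. With edgeR's likelihood ratio test and with DESeq2, 3 of the 8 passed at an adjusted p under 0.05, which were Cd74, H2-Ab1 and H2-DMb1 in both. So did 265 of all 12206 genes tested with the likelihood ratio test and 234 with DESeq2. The median log2 difference was 2.21 over the 8 genes and 0.02 over all genes tested. Both S.C. mice lay above all 4 I.P. mice for 7 of the 8 genes, as they did for 8.07% of all genes tested. Without I.P. mouse 1, or without S.C. mouse 1, 4 of the 8 were upregulated, Cd74, H2-Ab1, Ciita and H2-DMb1 in both cases, when 3.12% and 5.66% of all genes tested were upregulated. The smallest p that exact permutation of the mice allows here is 0.133, two-sided, with 2 S.C. and 4 I.P. mice.

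Against DMSO mice, the S.C. mice were higher in mean for all 8 genes, but 0 of the 8 met the criterion (edgeR quasi-likelihood test), and 0 had an unadjusted P below 0.05. Of all 11680 genes tested, 2.29% were upregulated, 5.06% were called in either direction and 5.41% had an unadjusted P below 0.05. The log2 difference was 1.92 for Ciita (standard error 0.81, edgeR Benjamini-Hochberg adjusted p = 0.938), the smallest adjusted p of the 8. The chains and the invariant chain had 1.29 for H2-Ab1 (standard error 0.74), 1.28 for H2-Aa (standard error 0.63), 1.25 for H2-Eb1 (standard error 0.60) and 1.12 for Cd74 (standard error 0.75). The DM genes had 1.09 for H2-DMb2, 0.88 for H2-DMa and 0.76 for H2-DMb1, with standard errors of 0.89, 0.47 and 0.60. Both S.C. mice lay above both DMSO mice for all 8 genes, as they did for 17.1% of all genes tested.

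How far the S.C. mice stood above vehicle depended on which DMSO mouse was used. The median log2 difference over the 8 genes was 1.19 with both DMSO mice, 2.48 without DMSO mouse 1 and 0.57 without DMSO mouse 2. Without DMSO mouse 1, 7 of the 8 genes were upregulated, all but H2-DMb2, and without DMSO mouse 2 it was 0, when 1.15% and 0.692% of all genes tested were. Leaving out S.C. mouse 1 gave 2 genes (H2-Aa and Ciita) and leaving out S.C. mouse 2 gave 4 (H2-Aa, H2-Eb1, Ciita and H2-DMb2). These last fits called far more genes everywhere, with 10.1% and 10.7% of all genes tested upregulated. Other tests on the same mice also crossed the line, with 3 of 8 upregulated by edgeR's likelihood ratio test (H2-Aa, H2-Eb1 and Ciita) and 4 by DESeq2, where H2-Ab1 came in addition, against 2.8% and 2.94% of all genes tested.

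Against the same 2 DMSO mice, the I.P. mice did not differ by the criterion for any of the 8 genes (edgeR quasi-likelihood test), and 0 had an unadjusted P below 0.05. Of all 12174 genes tested, 0.468% were downregulated, 2% were called in either direction and 3.43% had an unadjusted P below 0.05. The log2 differences were -1.60 for Cd74 (standard error 0.74), -1.30 for H2-Ab1 (standard error 0.76), -0.93 for H2-Eb1 (standard error 0.87) and -0.92 for H2-Aa (standard error 0.85). They were -0.85 for Ciita (standard error 0.92), -0.61 for H2-DMb1 (standard error 0.49), -0.20 for H2-DMa (standard error 0.50) and 0.42 for H2-DMb2 (standard error 0.69). The edgeR adjusted p of each was 0.98 or above. Cd74 was downregulated by edgeR's likelihood ratio test, as were 0.682% of all genes tested. With DESeq2, 0 of the 8 were called, where 0.509% of all genes tested were downregulated.

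The sign of the I.P. difference also rested on the DMSO mice. The median log2 difference over the 8 genes was -0.89 with both, -1.56 without DMSO mouse 2, when Cd74, H2-Ab1 and H2-DMb1 were downregulated, and 0.43 without DMSO mouse 1, when 0 were called and 7 of the 8 were positive. Without I.P. mouse 3, the I.P. mouse with the highest class II levels, it was -1.68 and 4 of the 8 were downregulated, H2-Aa, H2-Ab1, H2-Eb1 and Cd74. Of all genes tested, 0.446% were downregulated without DMSO mouse 2 and 0.904% without I.P. mouse 3. The comparisons of S.C. and of I.P. with vehicle share both DMSO mice, so their opposite signs are not independent of each other, whereas the comparison of the routes does not use the DMSO mice.

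**Figure D2:**
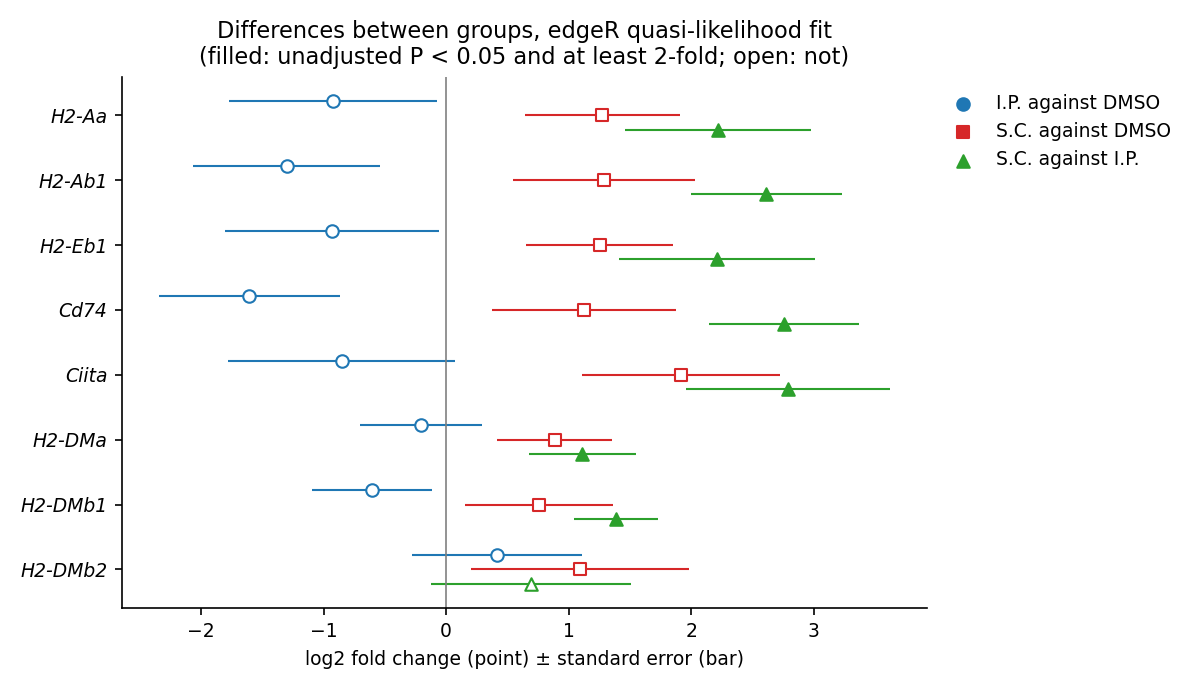
Log2 fold change of each gene in the 3 comparisons, with bars of 1 standard error (edgeR quasi-likelihood fit, 4 I.P., 2 S.C. and 2 DMSO mice). Filled points met the criterion of P and 2-fold change. Only points of S.C. against I.P. are filled, 7 of 8, between 1.11 and 2.79.

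**Figure D3:**
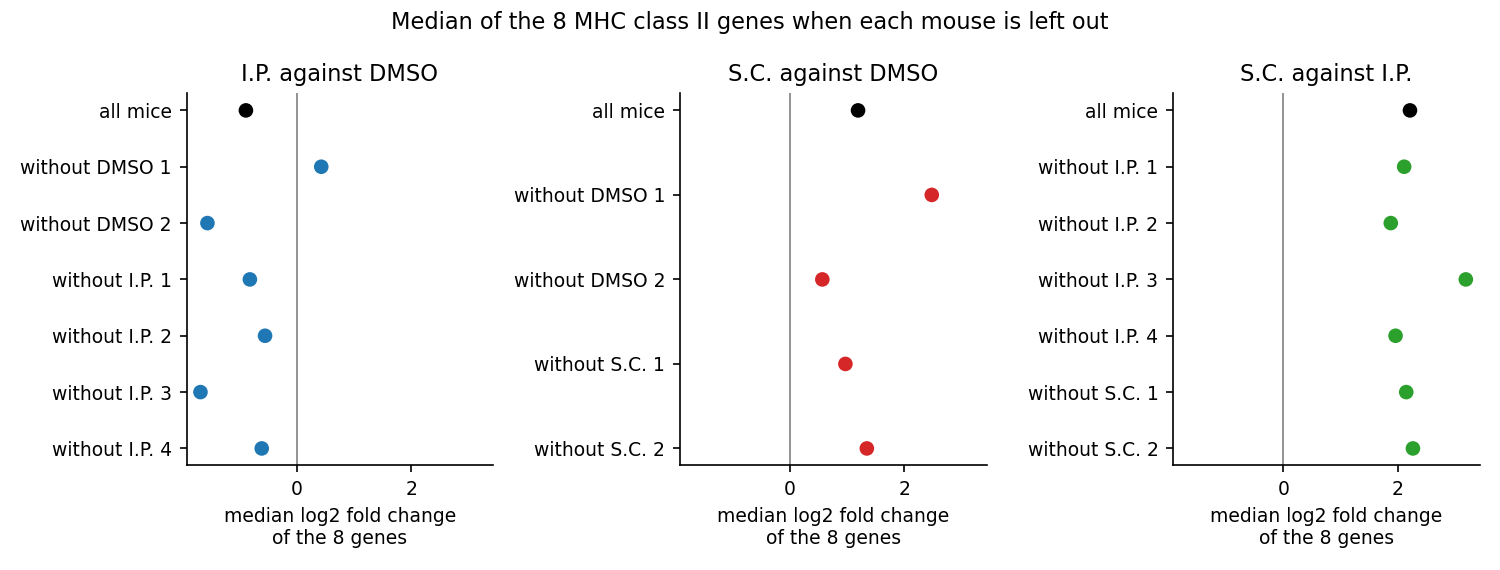
Median log2 fold change of the 8 genes with all mice (black) and with each mouse left out in turn, for each comparison. The value of I.P. against DMSO moves from -0.89 to 0.43 without DMSO mouse 1, while S.C. against I.P. stays between 1.88 and 3.19.

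The spread within the DMSO and the I.P. group was about as large as the differences from vehicle for most of the genes. Except for H2-DMb2, the 2 S.C. mice lay closer together than the DMSO mice. Their log2 SD was lowest for H2-Aa, at 0.027 against 1.38 in DMSO mice. Among these genes it was highest for Cd74, at 0.438 against 1.65 in DMSO mice. DMSO mouse 1 exceeded DMSO mouse 2 for 8 of the 8 genes, 5.25-fold for H2-Ab1, 5.05-fold for Cd74, 4.38-fold for Ciita, 3.86-fold for H2-Aa, 3.58-fold for H2-DMb1, 3.50-fold for H2-Eb1 and 2.39-fold for H2-DMa. Among all 12352 genes that passed the filter over the 3 groups, 1.13% differed as much between the DMSO mice as H2-Ab1 did and 6.82% as much as H2-DMa. H2-DMb2 differed only 1.11-fold. I.P. mice kept 1 order, with mouse 3 highest, then mice 1, 4 and 2, for 7 of the 8 genes, again all but H2-DMb2. I.P. mouse 3 exceeded I.P. mouse 2 by 11.1-fold for H2-Aa and 8.69-fold for Ciita, and by 2.10-fold for H2-DMb1. The 2 S.C. mice lay closest for H2-Aa, at 1187 ± 22.3 CPM (SD, n = 2), and farther apart for Cd74, at 5115 ± 1529 CPM (SD, n = 2), and H2-DMb2, at 4.36 ± 1.73 CPM (SD, n = 2).

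Levels between genes were compared as CPM per kilobase of exon. Cd74 was highest in 8 of 8 mice, with 1374 ± 1301 (SD, n = 2) in DMSO, 452 ± 362 (SD, n = 4) in I.P. and 3046 ± 911 (SD, n = 2) in S.C. mice. H2-Ab1 came second in 7 of 8 mice, with 456 ± 439, 185 ± 143 and 1134 ± 124 CPM per kilobase in DMSO, I.P. and S.C. mice. H2-Eb1 exceeded H2-Aa within each of 8 mice, at 160 ± 125 against 127 ± 106 in DMSO mice. The margin was small in I.P. mouse 1, at 59.0 against 57.7. H2-DMb1, at 128 ± 102 in DMSO mice, exceeded H2-Aa in 4 of 8 mice, so that these neighbours have no fixed order. H2-DMa came sixth in 7 of 8 mice, and Ciita, at 0.551 ± 0.489, 0.305 ± 0.267 and 2.11 ± 0.374, was lowest in 7 of 8, with H2-DMb2 lowest in the other mouse. Exon length is a union over annotated transcripts, so a gene with long minor transcripts reads low on this scale.

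The 8 genes together took 0.797% and 0.179% of all counts in DMSO mice, 0.176%, 0.0688%, 0.415% and 0.115% in I.P. mice, and 1.14% and 0.858% in S.C. mice. This share differed more than 10-fold between I.P. mouse 2 and the S.C. mice.

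Chains, invariant chain and Ciita varied over a wider range than DM. Between the highest and the lowest mouse, H2-Aa, H2-Ab1, H2-Eb1, Cd74 and Ciita differed by 21.1-fold to 33.9-fold, and H2-DMa and H2-DMb1 by 4.11-fold and 4.27-fold. As a result, the CPM ratio of H2-DMa to H2-Aa was not constant. It was 0.289 and 0.467 in DMSO mice, 0.696, 1.37, 0.368 and 0.756 in I.P. mice, and 0.267 and 0.230 in S.C. mice, with both S.C. mice below the other 6. The ratio of Cd74 to the sum of the 3 chains stayed between 0.80 and 1.204 in all 8 mice. The ratio of H2-Eb1 to H2-Aa stayed between 0.523 and 0.695.

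Across the 8 mice, log2 CPM of Ciita had a Pearson correlation of 0.97 with H2-Aa, 0.98 with H2-Ab1, 0.96 with H2-Eb1, 0.96 with Cd74, 0.97 with H2-DMa and 0.96 with H2-DMb1. For H2-DMb2 it was 0.68. Spearman's rho was 1 for H2-Aa and H2-Ab1 and 0.762 for H2-DMb2, with the others from 0.929 to 0.976. Without I.P. mice 2 and 4, the mice farthest from the median of Ciita, r was 0.934 for H2-Aa and 0.483 for H2-DMb2. Within the 4 I.P. mice alone r ran from 0.894 to 0.996 for the 6 genes other than H2-DMb2. For each log2 unit of Ciita, the chains and Cd74 differed by 0.88 to 0.90 log2 units, and H2-DMa and H2-DMb1 by 0.44 and 0.47. These are descriptions over 8 mice, in which treatment, library and tumor vary together, and no p is given.

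**Figure D4:**
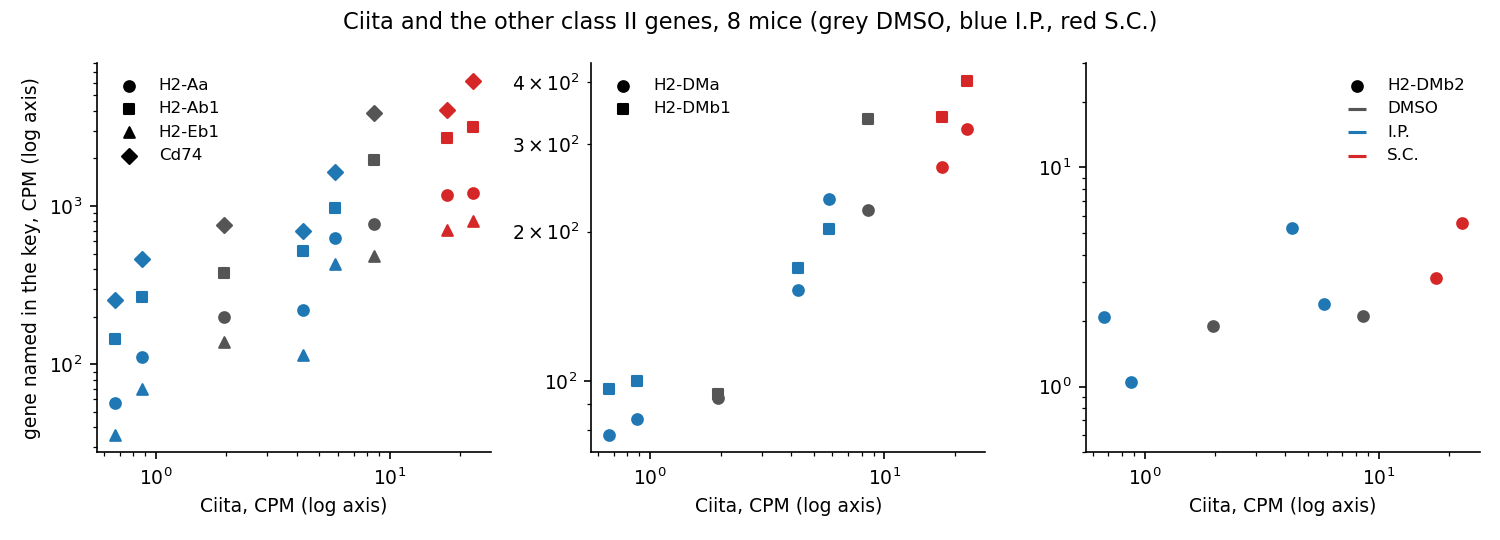
Level of Ciita (x axis) against that of the other 7 genes (y axis), both in CPM on log axes, with 1 point per gene and mouse and colors for DMSO, I.P. and S.C. mice. The chains and Cd74 have the steepest slopes, 0.88 to 0.90 log2 units for each log2 unit of Ciita, those of H2-DMa and H2-DMb1 are 0.44 and 0.47, and H2-DMb2 scatters (r = 0.68).

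Of 32 other genes of the pathway, 28 were tested in each comparison with vehicle and 29 between the routes. In S.C. against DMSO mice, 2 of 28 were upregulated and 0 downregulated, where 2.29% of all genes tested were upregulated. By edgeR's quasi-likelihood test 0 were called in the other comparisons, with Cd63 in I.P. against DMSO mice below an unadjusted P of 0.05 but short of 2-fold. The upregulated genes were Irf1, an interferon-gamma-induced transcription factor that acts on a Ciita promoter, and Ctss, the cathepsin that trims the invariant chain. Irf1 was at 86.2 and 59.2 CPM in DMSO mice, 126, 35.3, 152 and 43.6 CPM in I.P. mice, and 109 and 277 CPM in S.C. mice. Its log2 difference in S.C. against DMSO mice was 1.39 (standard error 0.52, edgeR adjusted p = 0.886). Unlike the class II genes, Irf1 was higher in I.P. mice 1 and 3 than in S.C. mouse 1. Ctss was at 4475 and 2813 CPM in DMSO mice, 6883, 3864, 6070 and 5202 CPM in I.P. mice, and 6998 and 8363 CPM in S.C. mice. Its log2 difference in S.C. against DMSO mice was 1.05 (standard error 0.36, edgeR adjusted p = 0.822).

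The remaining pathway genes are given by group, with the gene of smallest P. Among 7 genes of the promoter complex (RFX, NF-Y and CREB factors, which bind the X and Y boxes), 0 were called, and the summed level lay between 138 and 167 CPM in all 8 mice. Their smallest P was that of Nfyb in S.C. against DMSO mice, where the log2 difference was -0.68 (standard error 0.41). Nfya had the smallest P in the other comparisons, with 0.43 in I.P. against DMSO and -1.25 in S.C. against I.P. mice. Among the 8 genes of interferon-gamma signalling, 7 were tested in each comparison, and Irf1 was the one called.

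Among 9 genes of peptide processing, the summed level was 36731 to 48864 CPM in DMSO mice, 49089 to 59399 CPM in I.P. mice and 63576 to 67168 CPM in S.C. mice. Most of the sum came from Ctsb and Ctsd. Ctsb alone overlapped between the groups, at 16033 and 24190 CPM in DMSO mice, 19924 to 30074 CPM in I.P. mice and 29703 and 32322 CPM in S.C. mice. Ctsd, a lysosomal aspartic protease, had the smallest P in I.P. against DMSO mice, with a log2 difference of 0.49 (standard error 0.26), and Ctss had it between the routes, with 0.48 (standard error 0.27). Among 4 genes of surface turnover and tetraspanins, Cd63 had a log2 difference of 0.58 in I.P. against DMSO mice (standard error 0.25), and Cd9 had 0.74 (standard error 0.30) in S.C. against DMSO mice and 0.47 (standard error 0.24) between the routes.

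The class II genes known mainly from B cells and dendritic cells, H2-Oa, H2-Ob and H2-Eb2, had few counts and were highest in S.C. mouse 1. H2-Oa had 55 counts in S.C. mouse 1 and 0 to 13 in the other mice, and H2-Ob had 78 counts in S.C. mouse 1 and 0 to 28 in the others. H2-Eb2 had 40 counts in S.C. mouse 1 and at most 2 elsewhere. Between the routes the log2 difference was 2.92 for H2-Oa (standard error 1.48), the smallest P of these genes. H2-Ob had it in the other comparisons, with 0.99 in S.C. against DMSO mice (standard error 1.42) and -1.23 in I.P. against DMSO mice (standard error 1.19).

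Markers of other cells that carry class II were measured beside these genes. Of 9 dendritic cell markers, 4 passed the filter in each comparison, and Ccr7 was upregulated in S.C. over I.P. mice. Their summed level was 7.52 to 19.4 CPM in DMSO mice, 5.41 to 14.96 CPM in I.P. mice and 16.0 to 43.6 CPM in S.C. mice. It was highest in S.C. mouse 1, DMSO mouse 1, S.C. mouse 2 and I.P. mouse 3, the same 4 mice with the highest class II levels, and its log2 value had r = 0.76 with the mean log2 CPM of H2-Aa, H2-Ab1, H2-Eb1 and Cd74 over 8 mice. The 4 markers tested in S.C. against DMSO mice all had a positive log2 difference (median 1.66). So did the 4 tested in S.C. against I.P. mice (median 1.03). The 2 sets differ, with Cd209a only in the first and Zbtb46 only in the second. Zbtb46 had 32 counts in S.C. mouse 1 and 0 in S.C. mouse 2. Ccr7 had 173 and 45 counts in S.C. mice 1 and 2, and 4 to 37 in the other mice. Xcr1 had 2 and 81 counts in S.C. mice 1 and 2, 60 in DMSO mouse 1 and 11 to 34 in the others. Cd209a had 247 counts in S.C. mouse 1 and 0 in S.C. mouse 2. Flt3 had at most 3 counts in any mouse, and Clec9a had 0 in both S.C. mice. The part of dendritic cells in the class II levels was not tested.

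Among the B cell markers, Cd79a was upregulated in S.C. mice over DMSO and over I.P. mice. It had 133 and 29 counts in S.C. mice 1 and 2, against at most 17 in the others. Pax5 had 0 counts in all 8 mice, and Ms4a1 had 0 and 2 in the S.C. mice. The summed level, mostly from Blnk and Cd79b, was 114 to 136 CPM in DMSO mice, 97.3 to 150 CPM in I.P. mice and 144 to 206 CPM in S.C. mice. Of 8 neutrophil markers tested, 5 were upregulated in S.C. over DMSO mice and 5 over I.P. mice, against 2.29% and 2.41% of all genes. Ltf, S100a9, Camp and Ngp were called in both, S100a8 only over DMSO mice and Mpo only over I.P. mice. Ltf had at most 14 counts and Camp at most 6 outside the S.C. mice. Both passed the filter only through the S.C. mice, where they are high, so their calls carry little weight. Neutrophil markers had r = 0.65 with the mean of H2-Aa, H2-Ab1, H2-Eb1 and Cd74. Monocyte markers had r = 0.32, T and NK cell markers 0.61, macrophage markers 0.38 and melanocyte markers 0.06. Of 6 monocyte markers tested in I.P. against DMSO mice, 5 were positive and Ccr2 was downregulated, as were 0.468% of all genes. Ccr2 was at 59.9 and 79.2 CPM in DMSO mice, 7.30 to 20.1 in I.P. mice, and 60.7 and 76.7 in S.C. mice. T and NK cell markers summed to 9.25 and 19.4 CPM in DMSO mice, 2.80 to 14.9 in I.P. mice, and 32.9 and 37.3 in S.C. mice. The part of these cells in the class II levels was not tested.

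**Figure D5:**
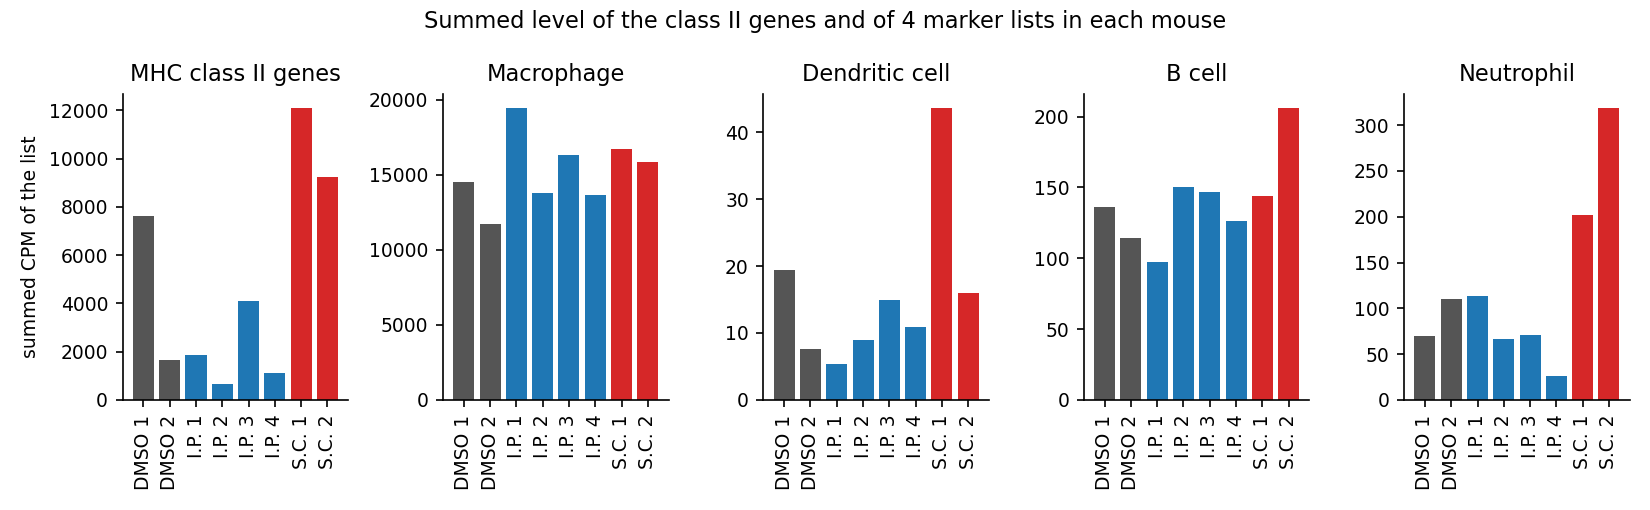
Summed CPM of the 8 MHC class II genes and of 4 marker lists in each mouse, each panel with its own axis from 0. Dendritic cell markers sum to at most 43.6 CPM and are highest in S.C. mouse 1, macrophage markers lie between 11724 and 19431 CPM, and neutrophil markers are highest in both S.C. mice.

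The genes most like the class II genes were sought among 9321 genes whose mean was 5 CPM or more, by Pearson correlation over 8 mice with the mean log2 CPM of H2-Aa, H2-Ab1, H2-Eb1 and Cd74. They were Slamf8, a surface receptor of myeloid cells (r = 0.97), Cd40, the receptor for T cell CD40 ligand (0.97), Plbd1 (0.96), Gbp2, an interferon-induced GTPase (0.94), Itga4, the integrin alpha-4 chain (0.94), Psme2, a proteasome activator subunit (0.94), Batf2 (0.94) and Mad2l1bp (0.94). Slamf8 was at 108 and 36.9 CPM in DMSO mice, 47.9, 23.8, 104 and 45.7 CPM in I.P. mice, and 130 and 125 CPM in S.C. mice. Cd40 had a narrower range, at 62.0 and 51.7 CPM in DMSO mice, 47.2, 36.1, 68.9 and 38.1 CPM in I.P. mice, and 78.4 and 76.7 CPM in S.C. mice. In both genes DMSO mouse 1 and I.P. mouse 3 were high in their groups and both S.C. mice were highest of all. For Ciita alone the nearest genes were Mad2l1bp (r = 0.97), Impdh2 (0.96), the class I gene H2-T9 (0.95) and Cd40 (0.95).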

How the data were processed

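Raw counts per gene symbol were deposited by the authors as whole numbers without normalization, 1 column per mouse. The methods state alignment to mm10 and counting with bowtie2 and RSEM, whereas the submitters' processing notes name TopHat2 and edgeR. Which made the table, its annotation, and the treatment of reads that fit several genes are not given in the sources used here, and this bears on H2-DMb1 and H2-DMb2. Mice were grouped by source name. Labels give no batch.

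Counts were analysed with edgeR 4.0.16 in R 4.3.3. For each pair of groups, genes were kept by filterByExpr (minimum count 10, minimum total 15), scaled by TMM and tested two-sided by quasi-likelihood, with P adjusted over all genes tested (Benjamini-Hochberg). The call rule was the study's, an unadjusted P below 0.05 and at least a 2-fold change. The standard error is the log2 fold change divided by the square root of F. Log2 CPM used a prior count of 2. The depth was 14127506 to 17577466 counts, of which 3 are 0.169 to 0.218 CPM, for counting error only. P-values measure the spread between mice, as each library is 1 mouse. Scripts were tested on simulated data. Positions are from GENCODE vM21, where 93.0% of symbols matched, and promoters from RefSeq (GRCm38.p6), where windows of 5 of the 8 genes were used.

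The genes and all lists were chosen with earlier results of these data known. All 8 genes are named. From each pathway list, every called gene and the gene with the smallest P in each comparison were named, and from the likeness search the 8 nearest genes (4 for Ciita). Some genes that this rule names are not reported here. Genes named beyond that, such as single markers, H2-Ea-ps and H2-Eb2, were chosen after their values were seen. Alternatives were RLE size factors, library size only, no filter, a filter of 1 CPM in 2 mice, the likelihood ratio test, DESeq2 1.42.0, a fit of all 3 groups, the replicate number as a block, leaving out each mouse, and H2-DMb1 and H2-DMb2 added. A block with the numbers crossed was chosen after seeing the data.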

Additional observations from a re-analysis of the deposited data

Results flagged for a closer look

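The genes flagged were the 7 of 8 that differed between S.C. and I.P. mice, at an unadjusted P under 0.05 with at least 2-fold change. This is the comparison of the routes given above. It uses no DMSO mouse, so it does not test an effect over vehicle, and route and dose differ together in it. Against vehicle, 0 of the 8 genes met the criterion by either route. The log2 difference between S.C. and I.P. mice was 2.79 for Ciita, 2.75 for Cd74, 2.61 for H2-Ab1 and 2.22 for H2-Aa. It was 2.21 for H2-Eb1, 1.39 for H2-DMb1 and 1.11 for H2-DMa. Both S.C. mice lay above all 4 I.P. mice for each, as they did for 8.07% of all genes tested. None passed Benjamini-Hochberg adjustment in edgeR's quasi-likelihood test, where the smallest adjusted p was 0.273, for Cd74. Among the 4 I.P. mice, 0 of 8 genes had a mouse beyond the 95% critical value of Dixon's test, and groups of 2 mice cannot be tested this way.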

How the results depend on the processing

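In S.C. against I.P. mice, 7 genes were called under each alternative on all mice without a block, with medians of 2.12 to 2.23. In these fits 1.88% to 3.15% of all genes tested were upregulated. With the replicate block 7 were called at a median of 3.41, against 1.56% of all genes. I.P. mice 3 and 4 share their numbers with no other mouse, so they add nothing to a difference fitted with that block. With each I.P. mouse left out, 4 to 7 were called, against 1.61% to 3.12% of all genes. The median was 1.88 to 3.19 when each mouse of either group was left out. In S.C. against DMSO mice the count of 0 became 3 with no filter or the likelihood ratio test. There 2.46% and 2.8% of all genes tested were upregulated. It became 4 with DESeq2 (2.94% of all genes), 5 with the replicate block (1.62%) and 4 with the block crossed (1.89%). Leaving out each mouse in turn gave medians of 0.57 to 2.48. In I.P. against DMSO mice the count of 0 became 1 (Cd74) with no filter, the likelihood ratio test or all 3 groups in 1 fit. Then 0.7%, 0.682% and 0.347% of all genes tested were downregulated. It became 4 with the replicate block, to which I.P. mice 3 and 4 again add nothing, against 1.46% of all genes. With each I.P. mouse left out, 0 to 4 were called, against 0.341% to 0.904% of all genes. Leaving out each mouse of either group gave medians of -1.68 to 0.43. There the log2 fold change ran from -1.91 to 0.36 for H2-Aa, -2.05 to 0.34 for H2-Ab1, -2.09 to 0.24 for H2-Eb1, -1.55 to 0.57 for Ciita, -0.70 to 0.56 for H2-DMa, -1.25 to 0.59 for H2-DMb1 and -0.13 to 0.68 for H2-DMb2, positive without DMSO mouse 1, and negative for H2-DMb2 without I.P. mouse 1 only. A group left with 1 mouse was assumed to vary like the other. Deviations of same-numbered mice correlated at -0.129 to 0.072, so the numbers do not pair the mice. With library size only, the median of all genes in S.C. against DMSO mice was -0.13, and the 8 genes kept their signs. With H2-DMb1 and H2-DMb2 added, 7 of 7 were called between the routes and 0 in the other comparisons. The cause of these changes was not tested. At 11 to 34 counts, Ciita in DMSO mouse 2 and I.P. mice 2 and 4, and H2-DMb2 in 4 of 8 mice, are limited by depth.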

Other observations

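Ifng, which encodes interferon-gamma, was not among the genes tested and was looked at after its counts were seen. It had 68 counts in DMSO mouse 1, 9 in I.P. mouse 3 and 0 in the other 6 mice, both S.C. mice included, where 0 counts allow up to 0.218 CPM. DMSO mouse 1 and I.P. mouse 3 were the mice with the highest class II levels in their groups.

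The genes with the lowest correlation over the 8 mice, also chosen after their values were seen, were Pmp22 for the mean of H2-Aa, H2-Ab1, H2-Eb1 and Cd74 (r = -0.92) and Hyal1, a lysosomal hyaluronidase, for Ciita (r = -0.95). Pmp22 was at 657 and 1090 CPM in DMSO mice, 974, 1138, 922 and 1142 CPM in I.P. mice, and 695 and 597 CPM in S.C. mice. Hyal1 was at 62.2 and 138 CPM in DMSO mice, 90.8, 168, 111 and 137 CPM in I.P. mice, and 44.9 and 53.7 CPM in S.C. mice.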
